A study of Homo sapiens with 18 samples.

Results

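RT112 is an established human bladder cancer line, and the data described here are its response to palbociclib across all genes of a whole-transcript array. The members are 6 of the 18 arrays of the study, 3 of RT112 cells given PBS as the control and 3 given palbociclib at its IC50. The question of the comparison was which transcripts differ between the treated and the control cells. All cells grew in DMEM with fetal bovine serum. The labels describe the RNA of each group as coming from 3 separate p100 dishes of pooled cells. P-values therefore rest on the spread between dishes within a group, pooled over the RT112 and J82 arrays that shared the fit. The dose and the hours of treatment are not given in the sources used here. Genes were taken as transcript clusters with exactly 1 symbol, with the brightest cluster kept per gene, which gave 22465 genes. The 6 arrays of J82, another bladder cancer line with control and palbociclib groups, shared the fit and serve as the comparison at the end. The doses of both lines are not given, so line and dose cannot be told apart in that comparison.

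Palbociclib binds the cyclin D partners CDK4 and CDK6. These kinases phosphorylate the retinoblastoma protein RB1, and phosphorylated RB1 releases E2F transcription factors, which switch on the genes of S phase. When the kinases are blocked, RB1 stays bound to E2F, and cells with a working RB1 are known to stop in G1. Genes of G2 and mitosis are switched on later in the cycle through B-MYB, FOXM1 and the MuvB complex, and are known to be silent in cells that stay in G1.

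The RT112 arrays carried the markers of an epithelial line. In the controls the basal keratin KRT5 stood at 15.54 ± 0.08 (SD, n = 3), the adherens junction gene CDH1 at 13.51 ± 0.18, KRT7 at 11.68 ± 0.09 and EPCAM at 8.83 ± 0.36 on the deposited log2 intensity scale, whose control medians over all rows were 4.91, 4.94 and 4.90. Of the markers of urothelial differentiation, KRT20 read 4.07 ± 0.03, UPK3A 4.42 ± 0.11, UPK3B 8.06 ± 0.19 and UPK1B 9.83 ± 0.31 in the controls. Of the markers of other cells, none of the 5 fibroblast, 5 endothelial and 5 leukocyte genes measured passed limma's test in either direction, and 1 of them, a fibroblast gene, was higher at an unadjusted p under 0.05. The control means of these genes ran from 4.46 to 7.81 for fibroblasts (LUM, highest), from 3.33 to 4.72 for endothelium and from 4.31 to 7.49 for leukocytes (CD68, highest), and the pan-leukocyte gene PTPRC, at 4.31 ± 0.08, and the endothelial gene PECAM1, at 3.33 ± 0.03, lay below the array medians.

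Palbociclib replicate 1 stood apart from its partners. Its median over all rows was 5.21, against 4.83 and 4.80 in replicates 2 and 3, and its 10th to 90th percentile of genes ran from 4.30 to 8.71, where those of the partners ran from 3.94 to 9.01 and 9.06. It correlated across rows with its partners at r = 0.974 and 0.973, where they reached 0.992 with each other. On this array the 5617 genes dimmest in the controls stood at 0.27 against the control mean (median) and the 5616 brightest at -0.09. In replicates 2 and 3 the dimmest genes stood at -0.08 each, and the brightest at 0.10 and 0.13. Counts of RT112 genes called in a list are therefore given with all 12 arrays and again without this array. Counts of genes whose groups did not overlap and list counts of the comparison with J82 use all arrays. All differences are palbociclib minus control on the deposited log2 scale, with the standard error (SE) of limma. That SE comes from 1 spread per gene over the J82 and RT112 arrays together. The scale reaches 19.93, above what raw scanner signal gives on a log2 scale, so a difference of 1 cannot be read as a doubling of signal.

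**Figure D1:**
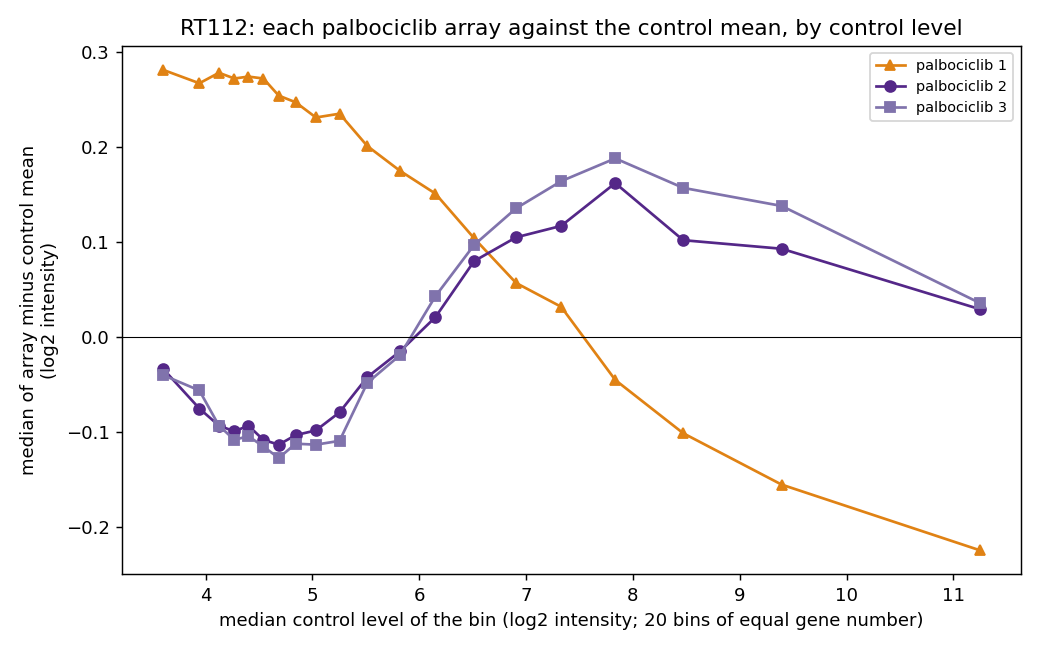
Median over genes of each RT112 palbociclib array minus the mean of the 3 controls (y axis, log2 intensity), in 20 bins of equal gene number by control level (x axis, log2 intensity), with 1 line per array. Replicate 1 (orange triangles) lies above the control level for dim genes and below it for bright genes, and replicates 2 and 3 (purple) run the other way and close to each other; the controls enter both axes, so a slope in itself is no change of genes.

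In RT112 under palbociclib 1112 of 22465 genes rose (4.95%) and 793 fell (3.53%) at an adjusted p under 0.05, together 8.48%. A fit of the RT112 arrays alone gave 839 higher and 741 lower. After the arrays were shifted to 1 median the split became 632 higher and 794 lower. Leaving out any 1 of the 3 controls or of palbociclib replicates 2 and 3 gave between 544 and 608 higher and between 576 and 629 lower. Without palbociclib replicate 1 these became 1818 higher (8.09%) and 1147 lower (5.11%), of which 1053 and 710 were called with the same sign in both. No gene was called with opposite signs. Calls lost without that array numbered 59 higher and 83 lower, and 765 higher and 437 lower were gained. The falls reached further than the rises: 374 genes fell by at least 1 and 221 rose by at least 1, 129 fell and 15 rose by at least 2, and 36 fell and 3 rose by at least 3. Without replicate 1 the numbers past 1 were 372 lower and 420 higher, so the excess of falls past 1 turned into an excess of rises, whereas past 2 it remained at 125 lower and 32 higher. The median difference over all genes was 0.035, or -0.055 without that array. The 3 palbociclib arrays lay all above the 3 controls in 3259 genes (14.5%) and all below them in 1855 (8.26%). The gene lists described below hold 277 of the 793 falling genes and 133 of the 1112 rising ones, so most of the genes called in either direction lie outside them. List counts of called members, or of members whose groups did not overlap, are to be read against the shares over all genes given above. In RNA from a whole dish, fewer cells in a phase of the cycle and less RNA per cell cannot be told apart.

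**Figure D2:**
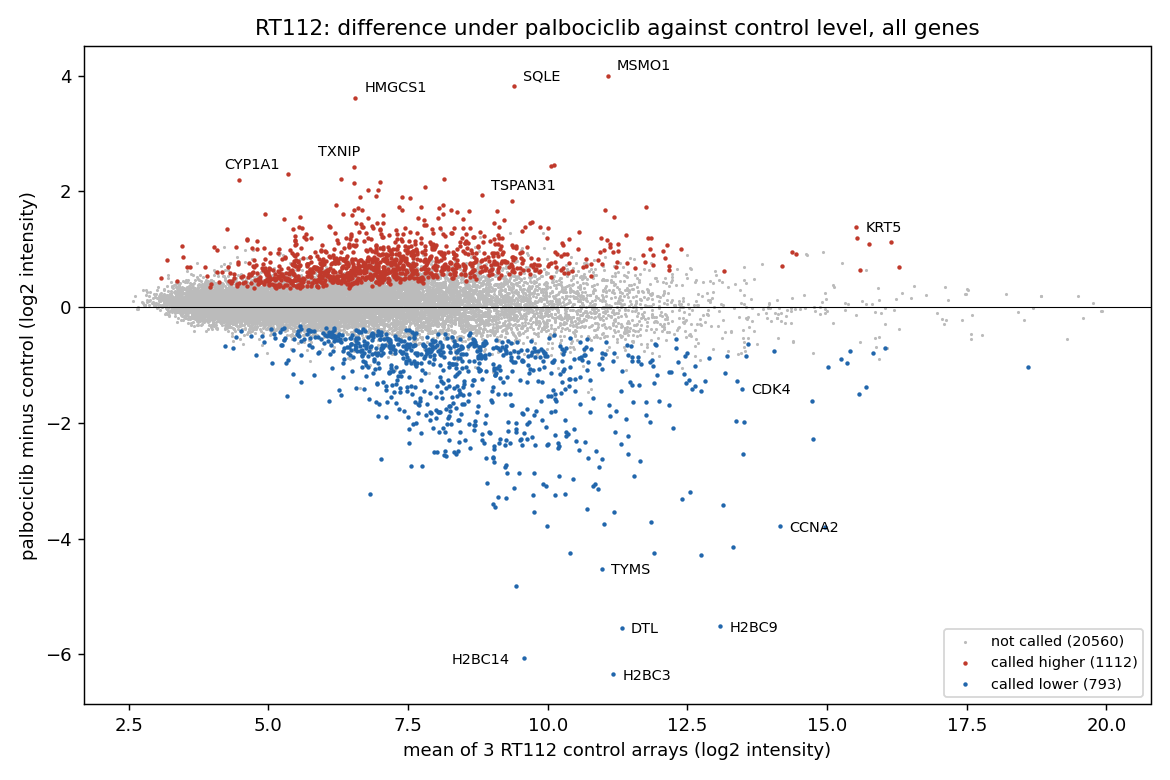
Difference under palbociclib (y axis, log2 intensity) against the mean of the 3 RT112 controls (x axis, log2 intensity), with 1 point per gene for 22465 genes. The 1112 genes called higher are red, the 793 called lower blue and the others grey. The deepest falls are the histone genes H2BC3 and H2BC14 and the ubiquitin ligase subunit DTL, and the highest rises MSMO1, SQLE and HMGCS1, enzymes of sterol synthesis.

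**Figure D3:**
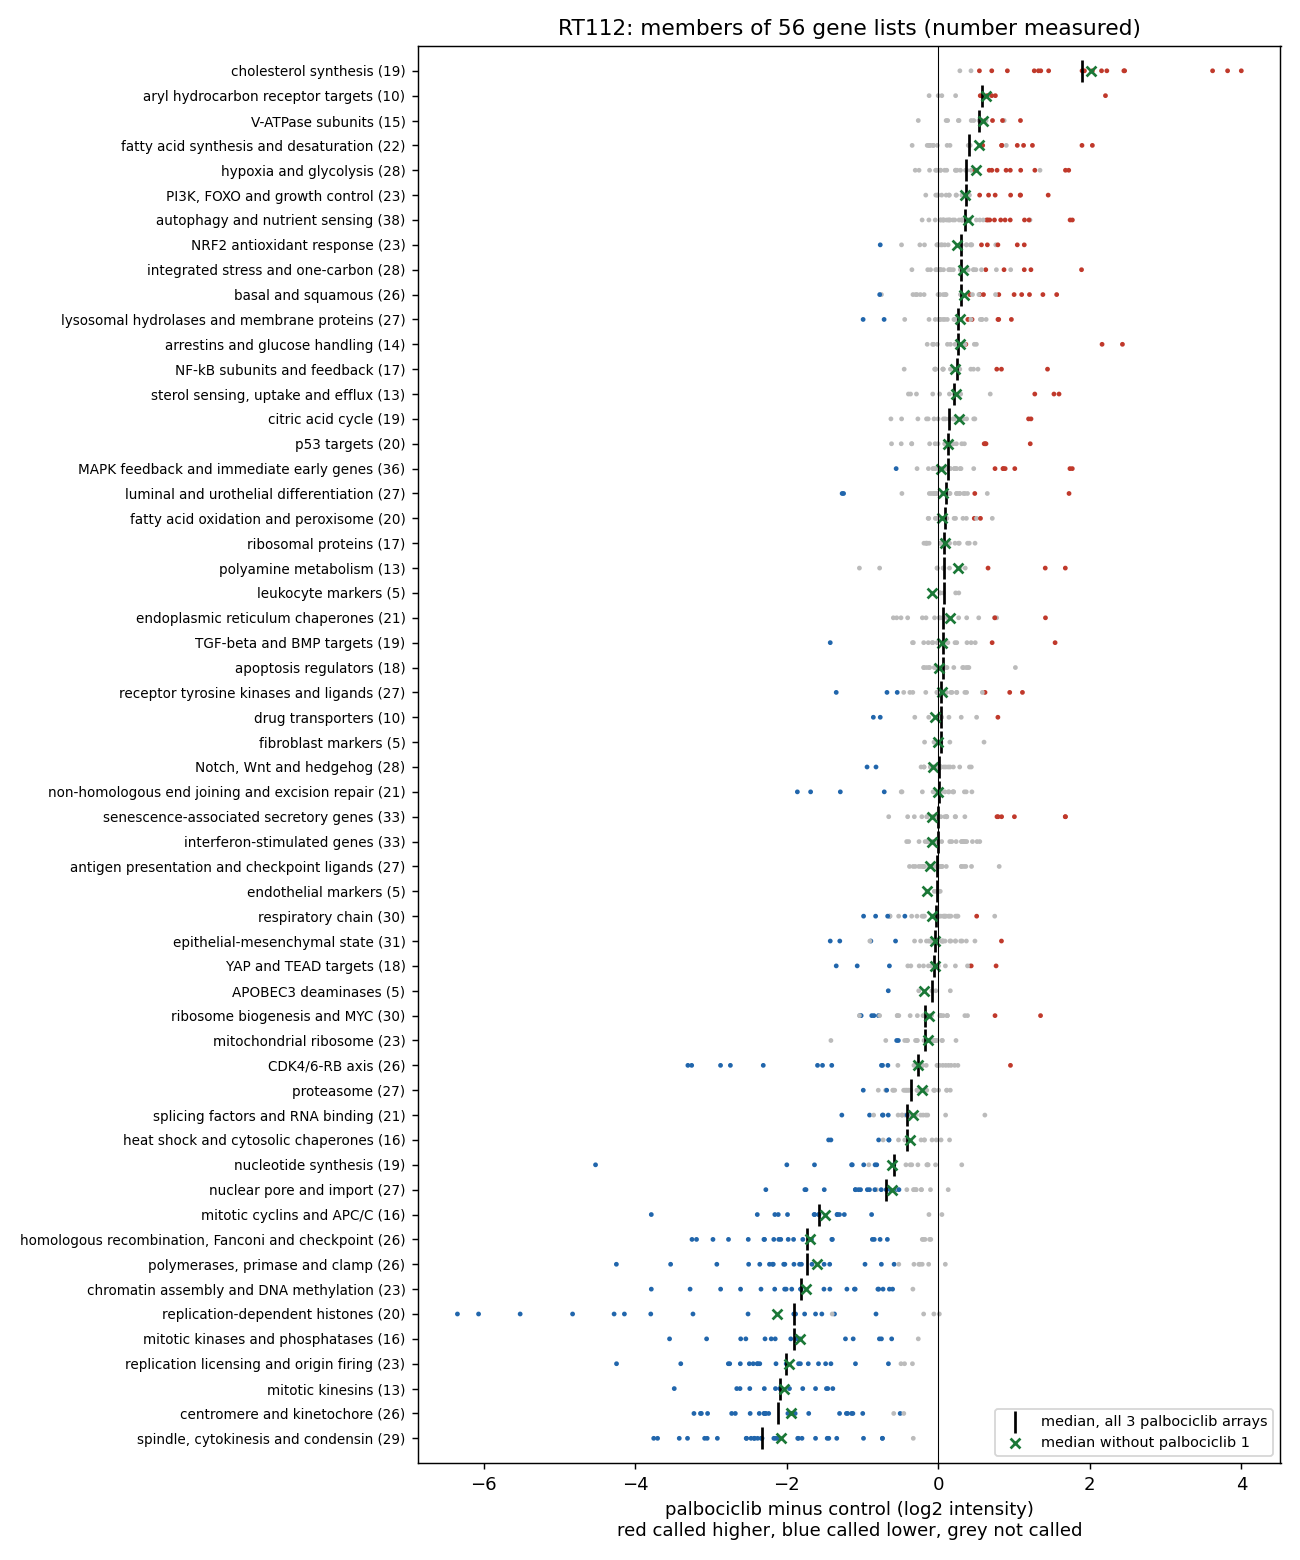
Difference under palbociclib (x axis, log2 intensity) of each measured member of 56 gene lists (rows, ordered by their median, with the number measured). Red points were called higher, blue lower and grey not called, the black bar is the median with all arrays and the green cross that without palbociclib replicate 1. The 12 lists at the foot, from the spindle to nucleotide synthesis, hold no member called higher, and cholesterol synthesis stands alone at the head with a median of 1.90.

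Of 26 measured genes of the CDK4/6-RB axis 11 fell and 1 rose, and the same numbers held without palbociclib replicate 1, with a median of -0.27. CDK6, which the drug binds, and the D-type cyclins, the partners of CDK4 and CDK6, were not called. CCND1, encoding cyclin D1, read 10.77, 10.63 and 10.39 in the controls and 10.49, 10.56 and 10.70 under palbociclib, in overlapping groups (-0.01 ± 0.21, adjusted p = 0.999). CDK6 stood at -0.21 ± 0.19 (adjusted p = 0.738) and CCND3 at -0.21 ± 0.11 (adjusted p = 0.398). CDK4 itself fell, from 13.67, 13.49 and 13.28 to 12.18, 11.71 and 12.33, by 1.41 ± 0.23 (adjusted p = 0.00137). All treated arrays lay below all controls for CDK4, and the difference was -1.46 without replicate 1. TSPAN31, a tetraspanin gene that overlaps CDK4 on the opposite strand in the RefSeq annotation, moved the other way, from 8.79, 8.84 and 8.83 to 10.51, 10.91 and 10.85 (1.93 ± 0.17, adjusted p = 5.41e-06). Whether probes of either gene lie in the shared stretch was not tested.

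The deepest falls on the axis were those of E2F8 and RBL1. E2F8, a repressor among the E2F factors, read 9.13, 9.17 and 9.46 in the controls and 5.99, 5.71 and 6.14 under palbociclib, a difference of -3.31 ± 0.17 (adjusted p = 4.95e-08). RBL1, the pocket protein p107, fell from 9.55, 9.71 and 9.96 to 6.10, 6.73 and 6.62 (-3.26 ± 0.19, adjusted p = 9.79e-08). In both genes the groups were more than 2 log2 units apart. E2F7 (-2.88), CCNE2, encoding cyclin E2 (-2.75), CDK2, the partner kinase of cyclin E (-2.31), the phosphatase gene CDC25A (-1.60), E2F1 (-1.53) and E2F2 (-0.75) fell as well, whereas E2F3 (-0.32 ± 0.20), E2F4 (-0.53 ± 0.19), E2F5 (0.22 ± 0.19) and E2F6 (0.06 ± 0.17) did not pass. RB1, the pocket protein on which the drug depends, was present in the controls at 8.87, 8.65 and 8.83 and fell to 7.93, 8.01 and 8.20 (-0.74 ± 0.15, adjusted p = 0.00544). RBL2, the pocket protein p130 that is known to hold E2F targets silent in resting cells, was the single member that rose, from 7.62, 7.76 and 7.85 to 8.35, 8.73 and 9.01 (0.95 ± 0.20, adjusted p = 0.00875). CCNE1 fell by 0.67 ± 0.16, a call lost without control 1 (-0.65), control 2 (-0.62), palbociclib 2 (-0.68) and palbociclib 3 (-0.60). The genes of the CDK inhibitors did not pass: CDKN1A, encoding p21, stood at 0.17 ± 0.14 (adjusted p = 0.689), CDKN1B, encoding p27, at 0.26 ± 0.15 (adjusted p = 0.426) and CDKN2A at -0.16 ± 0.12 (adjusted p = 0.642).

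Promoters of 3 genes that fell are shown because they carry the 8-letter words TTTCCCGC, TTTGGCGC, TTTGCCGC or TTTCGCGC, forms of the site known for E2F factors, on either strand. Each is the 250 bases before the start of the gene from RefSeq (GRCh38.p14), 5′ to 3′ on the strand of the gene, with the words in capitals. The genes and words were picked with the values known. DTL lies at chr1:212035498-212035747 (plus strand), RBL1 at chr20:37095998-37096247 (minus strand) and MCM6 at chr2:135876444-135876693 (minus strand).
DTL: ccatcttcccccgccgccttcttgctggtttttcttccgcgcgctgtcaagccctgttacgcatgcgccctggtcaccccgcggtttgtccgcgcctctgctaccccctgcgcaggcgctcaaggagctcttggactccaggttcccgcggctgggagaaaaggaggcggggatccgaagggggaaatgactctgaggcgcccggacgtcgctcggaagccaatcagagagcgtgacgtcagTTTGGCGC
RBL1: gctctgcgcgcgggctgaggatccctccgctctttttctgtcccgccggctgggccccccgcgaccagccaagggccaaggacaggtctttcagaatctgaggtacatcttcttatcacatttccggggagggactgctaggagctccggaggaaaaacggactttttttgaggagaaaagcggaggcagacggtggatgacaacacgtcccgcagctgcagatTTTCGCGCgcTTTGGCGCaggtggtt
MCM6: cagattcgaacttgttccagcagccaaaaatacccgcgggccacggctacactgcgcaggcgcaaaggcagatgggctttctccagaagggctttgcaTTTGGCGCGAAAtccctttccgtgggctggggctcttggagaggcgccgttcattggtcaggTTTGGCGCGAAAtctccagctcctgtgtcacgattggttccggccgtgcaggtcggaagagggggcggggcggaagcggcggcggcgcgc
The word of DTL begins at position -8, counted back from the start, those of RBL1 at -26 and -16, and those of MCM6 at -152, -148, -90 and -86, where each pair shares 4 letters. Among 15247 measured genes with a promoter, 664 hold such a word (4.35%). These genes have 21181 such windows, and a gene counts if any of its windows holds a word. Counts of promoters here and below are therefore counts of genes. Among the 621 called lower the share was 14.3%, among the 108 that fell by at least 2 it was 25% (27 genes), and among the 887 called higher 3.49%. A word is a description of the sequence and not a site, and the promoters of CDC6, PRIM1 and RRM2 hold none in this window.

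The machinery that licenses and fires replication origins fell almost whole. Of 23 measured members 20 fell and none rose, and 23 fell without palbociclib replicate 1, with a median of -2.01 (-1.97 without that array). CDC6, which loads the MCM helicase at origins, read 12.08, 11.80 and 11.84 in the controls and 7.46, 7.73 and 7.79 under palbociclib (-4.25 ± 0.19, adjusted p = 1.42e-08). MCM10, which activates the loaded helicase, went from 8.94, 9.10 and 9.03 to 5.90, 5.62 and 5.36 (-3.40 ± 0.18, adjusted p = 4.95e-08). ORC1, of the origin recognition complex, went from 7.71, 7.79 and 7.78 to 5.04, 4.95 and 5.02 (-2.75 ± 0.15, adjusted p = 5.68e-08). The treated arrays lay below the controls in all 23 members, against 8.26% of all genes. All 6 subunits of the MCM2 to MCM7 helicase fell, with differences from -1.72 (MCM2) to -2.77 (MCM4). CDT1, the licensing factor that pairs with CDC6, stood at -0.34 ± 0.12 and did not pass with all arrays (adjusted p = 0.12).

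DTL, a substrate receptor of a ubiquitin ligase that removes CDT1 in S phase, had the smallest p-value among the leading falls, going from 11.35, 11.16 and 11.49 to 5.66, 5.86 and 5.85. Its difference was -5.54 ± 0.15 (adjusted p = 1.40e-10). Of 26 polymerase, primase and clamp genes 19 fell, with and without replicate 1, and none rose. PRIM1, which lays the RNA primer, read 10.55, 10.38 and 10.27 in the controls and 5.81, 5.83 and 6.80 under palbociclib (-4.25 ± 0.24, adjusted p = 7.96e-08). PCNA, the sliding clamp, fell from 9.75, 9.87 and 9.64 to 6.30, 5.84 and 6.51 (-3.53 ± 0.18, adjusted p = 3.85e-08). For both genes every treated array lay over 3 units below the lowest control. POLA2, the B subunit of polymerase alpha (-2.92), the checkpoint mediator CLSPN (-2.50) and WDHD1, which couples the polymerase to the helicase (-2.36), also fell. Of 19 nucleotide synthesis genes 9 fell, with and without replicate 1, and none rose. TYMS, which makes thymidylate, went from 11.01, 10.79 and 11.14 to 6.15, 6.59 and 6.61 (-4.53 ± 0.23, adjusted p = 4.39e-08), the ribonucleotide reductase subunit RRM2 fell by 2.00 ± 0.12, and the thymidine kinase TK1 by 1.14 ± 0.22.

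The replication-dependent histone genes, whose mRNAs are known to be made in S phase, gave the deepest single falls. Of 20 measured members 16 fell and none rose, or 15 without palbociclib replicate 1, and the members ranged from -6.35 to 0.01. H2BC3 read 11.79, 11.22 and 10.52 in the controls and 4.69, 4.59 and 5.21 under palbociclib (-6.35 ± 0.27, adjusted p = 7.83e-09). H2BC14 went from 9.73, 10.14 and 8.86 to 3.68, 3.38 and 3.46 (-6.07 ± 0.23, adjusted p = 2.88e-09) and H2BC9 from 13.50, 13.12 and 12.65 to 8.02, 7.16 and 7.53 (-5.52 ± 0.35, adjusted p = 1.94e-07). The controls of these genes spread over about 1 unit, more than the treated arrays of H2BC14, and the groups lay more than 4 units apart. H2BC3 and H2BC14 ended near or below the array medians, and no detection call was used here to say whether they still stood above background. H4C3 moved most with replicate 1, from -4.14 to -4.66 without it, having read 10.21, 8.21 and 9.10 in the 3 treated arrays. H1-5 (0.01), H2AC6 (-0.06) and H1-3 (-0.19) did not pass. Histone genes share much of their sequence, so the reading of 1 of them may hold signal of others.

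Genes that package and mark new chromatin fell with them, 22 of 23 members with and without replicate 1 and none rising. ATAD2, a bromodomain ATPase, read 9.98, 9.95 and 10.05 in the controls and 6.13, 6.21 and 6.28 under palbociclib (-3.79 ± 0.13, adjusted p = 1.98e-09). The helicase HELLS (-3.28), the transcription factor MYBL2, which encodes B-MYB (-2.87), the histone methyltransferase EZH2 (-2.61) and the chromatin assembly subunit CHAF1B (-2.34) followed. Repair genes were called in different shares by list. Of 26 genes of homologous recombination, the Fanconi pathway and the checkpoint 21 fell, among them the helicase BRIP1 (-3.25 ± 0.19), the Fanconi ubiquitin enzyme UBE2T (-3.19 ± 0.17) and FANCI (-2.98 ± 0.18), and none rose, as was so without replicate 1. Of 21 genes of end joining and excision repair 4 fell (3 without replicate 1), led by PRKDC, the DNA-dependent kinase, which went from 11.63, 11.68 and 11.96 to 9.32, 10.12 and 10.24 (-1.86 ± 0.24, adjusted p = 1.96e-04). The list medians were -1.74 and 0.01.

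The mitotic genes fell as a block. None of the 100 measured entries in 5 lists rose, and 94 fell: 15 of 16 mitotic kinases and phosphatases, 14 of 16 cyclins and members of the anaphase-promoting complex, all 13 kinesins, 24 of 26 centromere and kinetochore genes (25 without palbociclib replicate 1) and 28 of 29 spindle, cytokinesis and condensin genes. The other 4 counts were the same without that array. CCNA2, encoding cyclin A2, read 14.19, 14.10 and 14.18 in the controls and 10.11, 10.22 and 10.78 under palbociclib (-3.79 ± 0.19, adjusted p = 4.56e-08). MKI67, the proliferation antigen Ki-67, went from 11.77, 11.63 and 12.17 to 7.53, 8.57 and 8.36 (-3.71 ± 0.27, adjusted p = 8.08e-07). AURKB, the kinase of the chromosomal passenger complex, went from 11.12, 11.06 and 11.36 to 7.64, 7.43 and 7.83 (-3.55 ± 0.21, adjusted p = 1.35e-07). The groups were at least 3 units apart in each of these genes. The kinase CDK1 (-3.06), the spindle motor KIF11 (-3.49), the cytokinesis scaffold ANLN (-3.42), the condensin subunit NCAPG (-3.76), the topoisomerase TOP2A (-3.31), the centromeric histone chaperone HJURP (-3.23) and the kinetochore subunit NDC80 (-3.05) all fell by about 3 or more. PLK1 (-2.54) and CCNB1, encoding cyclin B1 (-1.99), fell less.

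Promoters of 3 mitotic genes are shown for the letters TTTGAA, the cell cycle homology region bound by MuvB complexes, again as the 250 bases before the start (RefSeq, GRCh38.p14) with the word in capitals on either strand. PLK1 lies at chr16:23678639-23678888 (plus strand), NCAPG at chr4:17810729-17810978 (plus strand) and ANLN at chr7:36389612-36389861 (plus strand).
PLK1: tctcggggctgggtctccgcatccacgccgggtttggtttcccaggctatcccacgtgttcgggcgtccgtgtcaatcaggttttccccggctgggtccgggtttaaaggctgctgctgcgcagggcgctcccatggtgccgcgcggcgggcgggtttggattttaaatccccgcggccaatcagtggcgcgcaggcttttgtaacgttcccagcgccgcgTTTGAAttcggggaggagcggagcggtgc
NCAPG: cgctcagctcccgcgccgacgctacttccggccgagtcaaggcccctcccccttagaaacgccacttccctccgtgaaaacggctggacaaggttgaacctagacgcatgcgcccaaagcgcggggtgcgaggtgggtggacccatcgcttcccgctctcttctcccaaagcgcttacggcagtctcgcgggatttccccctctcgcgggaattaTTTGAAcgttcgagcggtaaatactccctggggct
ANLN: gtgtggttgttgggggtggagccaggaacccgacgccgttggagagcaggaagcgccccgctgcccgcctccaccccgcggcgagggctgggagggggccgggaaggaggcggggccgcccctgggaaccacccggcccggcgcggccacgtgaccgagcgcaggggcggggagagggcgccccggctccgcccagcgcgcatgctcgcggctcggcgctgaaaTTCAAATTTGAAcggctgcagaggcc
The word begins at -29 in PLK1, at -35 in NCAPG and at -26 and -20 in ANLN, where the words abut on opposite strands. It stands in 36 of 84 promoters of the mitotic lists (42.9%), in 14.5% of all measured promoters and in 14.7% of the 102 promoters of the replication, chromatin and repair lists. The E2F words were in 8.33% of the mitotic and 18.6% of the replication, chromatin and repair promoters, against 4.35% of all. CCAAT, the box of the factor NF-Y, was found in 63 mitotic promoters (75%) and in 40.0% of all, and in 19 of 19 promoters of the replication-dependent histones. Neighbouring histone genes can share a promoter, so these 19 are not all independent.

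**Figure D4:**
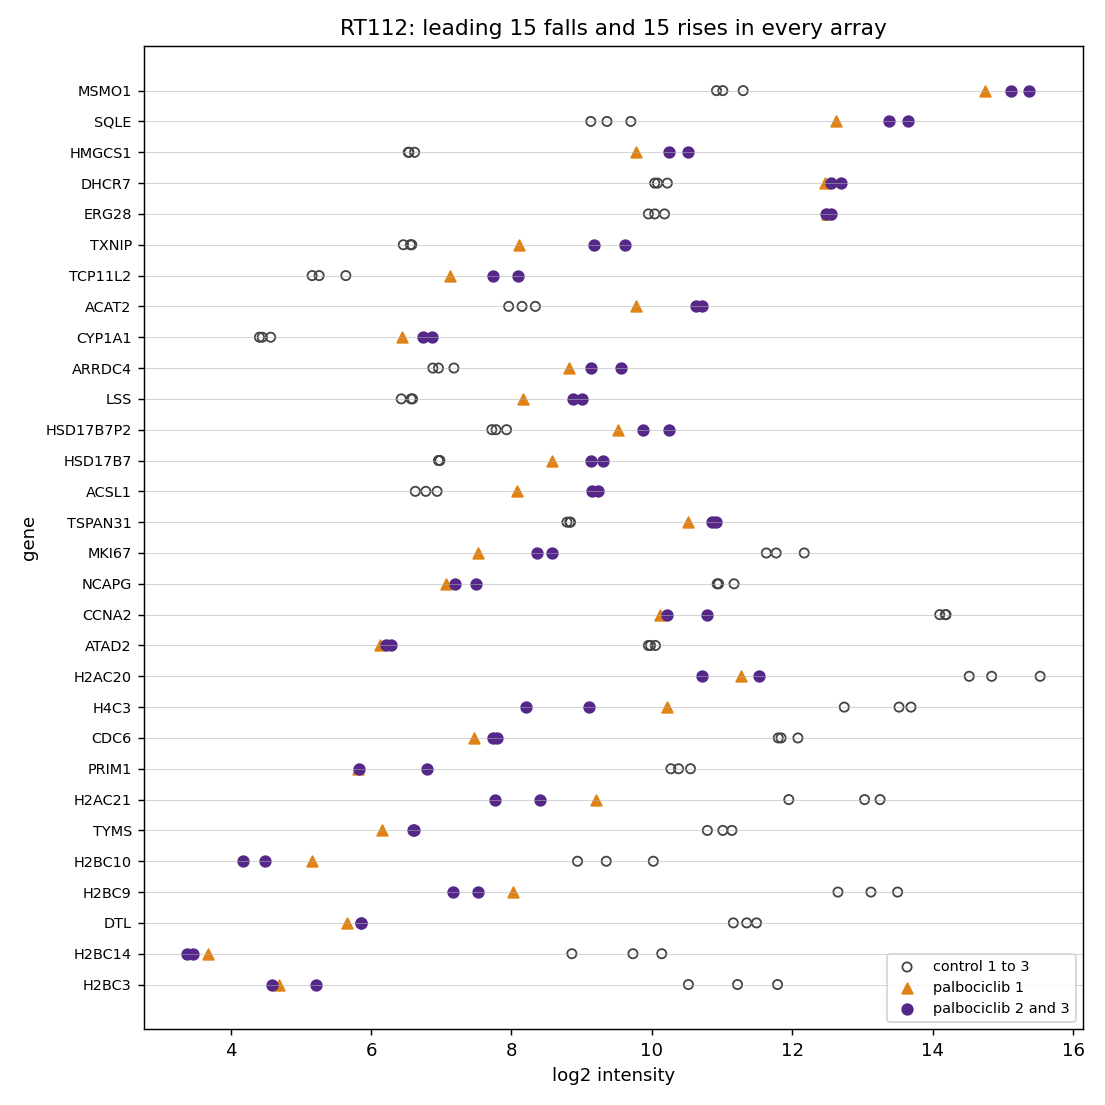
Log2 intensity (x axis) in each RT112 array of the 15 genes with the deepest falls and the 15 with the highest rises (y axis). Open circles are the 3 controls, the orange triangle palbociclib replicate 1 and purple points replicates 2 and 3. The groups do not overlap in any of the 30 genes, as the choice of genes requires, and the triangle is the lowest treated array in 14 of the 15 rises.

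Outside the cell cycle, the nuclear transport genes formed the next group that fell. Of 27 members 16 fell and none rose (15 without replicate 1), with a median of -0.69. KPNA2, an importin that carries cargo into the nucleus, read 14.95, 14.89 and 14.38 in the controls and 12.98, 12.05 and 12.37 under palbociclib (-2.28 ± 0.27, adjusted p = 6.44e-05). NUP188, of the inner ring of the pore, went from 9.55, 9.65 and 9.68 to 7.45, 7.97 and 8.18 (-1.76 ± 0.21, adjusted p = 8.21e-05), and the membrane nucleoporin NUP210 from 8.20, 8.45 and 8.40 to 6.68, 6.42 and 6.72 (-1.75 ± 0.19, adjusted p = 2.86e-05). All 3 had treated arrays more than 1 unit below the controls. RAN, the small GTPase that drives transport, stood at -0.10 ± 0.16 and did not pass (adjusted p = 0.909).

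Cytosolic chaperones, splicing factors and nucleolar genes fell in part. Of 16 heat shock and chaperonin genes 5 fell (4 without replicate 1, and 2 without any 1 of the controls), among them HSPH1, a co-chaperone of HSP70, from 12.70, 12.38 and 12.67 to 10.86, 11.32 and 11.32 (-1.42 ± 0.20, adjusted p = 4.39e-04), and HSPA4L by 1.45 ± 0.15. Of 21 splicing and RNA binding genes 6 fell (4 without replicate 1, and 2 or 3 without any other RT112 array), with SF3B3 at -1.27 ± 0.22 and SNRPB at -0.74 ± 0.15. Of 30 genes of ribosome biogenesis and MYC 5 fell and 2 rose, with and without replicate 1 (3 fell without control 2): NOLC1 (-1.02), LYAR (-1.03) and the nucleolar methyltransferase FBL (-0.88) fell, whereas the MYC antagonist MXD1 rose from 7.99, 7.75 and 8.05 to 8.55, 9.62 and 9.66 (1.35 ± 0.23, adjusted p = 0.002). MYC itself rose by 0.75 ± 0.18, a call lost without control 1 (0.77), control 3 (0.65) and palbociclib 3 (0.65). The 2 rises became 1 without control 1, control 3 or palbociclib 3.

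Housekeeping genes were called in different shares, read against 4.95% higher and 3.53% lower over all genes (8.09% and 5.11% without replicate 1). By limma none of 17 ribosomal protein genes passed (1 without replicate 1), and none had an unadjusted p under 0.05 with all arrays. In 14 of 27 proteasome genes all treated arrays lay below all controls, against 8.26% of all genes, and 2 fell (1 without replicate 1), PSMC3, an ATPase of the regulatory particle (-0.99 ± 0.21), and PSMD12, whose call was lost without control 1 (-0.63), control 2 (-0.75), control 3 (-0.66), palbociclib 1 (-0.55) and palbociclib 2 (-0.70). Of 23 genes of the mitochondrial ribosome 2 fell (3 without replicate 1, and 0 or 1 without any other RT112 array). Of 30 respiratory chain genes 5 fell and 1 rose (5 and 2 without replicate 1). Without any 1 of the other RT112 arrays the 5 became between 0 and 2 and the 1 became 0. Of 20 genes of fatty acid oxidation and the peroxisome 2 rose (5 without replicate 1, and 0 or 1 without any other RT112 array). In a list of 21 genes of endoplasmic reticulum chaperones and stress 2 rose (4 without replicate 1, and 1 without control 1, control 2, palbociclib 2 or palbociclib 3). They were HERPUD1 (1.41 ± 0.20) and ERN1 (0.75 ± 0.19), neither of which encodes a chaperone. The call of ERN1 was lost without control 1 (0.69), control 2 (0.73), palbociclib 2 (0.66) and palbociclib 3 (0.67).

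Enzymes of cholesterol synthesis rose in nearly every step measured. Of 19 members 17 rose, with and without palbociclib replicate 1, and none fell, with a median of 1.90 (2.02 without that array). The treated arrays lay above the controls in all 19, against 14.5% of all genes. In the mevalonate branch HMGCS1, which makes HMG-CoA, read 6.54, 6.53 and 6.62 in the controls and 9.77, 10.52 and 10.24 under palbociclib (3.62 ± 0.30, adjusted p = 2.48e-06). SQLE, which oxidises squalene and is a known rate-limiting step, went from 9.13, 9.36 and 9.70 to 12.62, 13.65 and 13.38 (3.82 ± 0.33, adjusted p = 3.47e-06). MSMO1, a sterol demethylase, went from 11.01, 10.92 and 11.30 to 14.75, 15.37 and 15.11 (4.0 ± 0.36, adjusted p = 5.52e-06). Replicate 1 was the lowest treated array in all 3, and still over 2 units above every control. ACAT2 (2.22), MVK (1.27), MVD (1.93), IDI1 (1.35) and FDPS (0.91) rose in the branch up to farnesyl pyrophosphate. Past squalene, LSS (2.15), CYP51A1 (1.90), NSDHL (1.46), HSD17B7 (2.03), EBP (0.70), SC5D (1.32), DHCR7 (2.46) and the scaffold ERG28 (2.45) rose. PMVK (0.28 ± 0.19) and TM7SF2 (0.43 ± 0.16) did not pass. HSD17B7P2, a near copy of HSD17B7, rose by 2.07 ± 0.20, and the array cannot be taken to separate the pair.

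The regulators of the pathway rose in a smaller share. Of 13 genes of sterol sensing, uptake and efflux 3 rose (4, with 1 lower, without replicate 1). SREBF2, the transcription factor that drives the pathway, went from 8.06, 8.20 and 8.12 to 9.08, 9.62 and 9.50 (1.27 ± 0.19, adjusted p = 5.79e-04). INSIG1, which holds that factor in the endoplasmic reticulum, went from 8.28, 8.44 and 8.76 to 9.77, 10.22 and 10.07 (1.53 ± 0.33, adjusted p = 0.00944). The groups did not overlap for either gene. The sterol carrier STARD4 rose by 1.59 ± 0.19, and SREBF1 stood at -0.37 ± 0.22 (adjusted p = 0.464). Of 22 fatty acid genes 9 rose (10, with 1 lower, without replicate 1). ACSL1, which activates long fatty acids, read 6.63, 6.78 and 6.94 in the controls and 8.08, 9.23 and 9.14 under palbociclib (2.03 ± 0.24, adjusted p = 8.25e-05). ACSS2, which makes acetyl-CoA from acetate (1.90), the citrate lyase ACLY (1.24) and malic enzyme ME1 (1.04) rose as well.

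The promoter of MSMO1 is shown because it holds CCAAT 4 times. SREBP factors are known to act beside NF-Y at sterol genes. It lies at chr4:165327419-165327668 (plus strand) (RefSeq, GRCh38.p14) and the box is in capitals on either strand.
MSMO1: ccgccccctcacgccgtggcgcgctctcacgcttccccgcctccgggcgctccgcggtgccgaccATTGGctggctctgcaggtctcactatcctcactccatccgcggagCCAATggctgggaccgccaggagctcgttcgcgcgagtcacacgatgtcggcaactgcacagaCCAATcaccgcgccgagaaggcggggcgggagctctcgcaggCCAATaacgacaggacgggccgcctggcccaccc
The boxes begin at -185, -139, -76 and -34. CCAAT was found in 15 of 17 promoters of cholesterol synthesis genes (88.2%) against 40.0% of all measured promoters. The box is not particular to genes that rose. It stood in 70.4% of promoters of genes that fell by at least 2, in 53.9% of those called lower and in 44% of those called higher. The letters TCACNCCAC, a form of the sterol element, were in no window of these 17 genes and in 182 of all 15247 genes (1.19%).

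Genes of nutrient sensing and autophagy rose in part. Of 38 members 11 rose and none fell (12 without palbociclib replicate 1, 7 without control 3 and 6 without palbociclib 3), where 4.95% of all genes were called higher. In 24 members all treated arrays lay above all controls, against 14.5% of all genes. WIPI1, which binds the growing autophagosome, read 6.22, 6.37 and 6.04 in the controls and 7.79, 7.84 and 8.30 under palbociclib (1.77 ± 0.19, adjusted p = 3.43e-05). FNIP1, a partner of folliculin, went from 7.28, 7.32 and 7.41 to 8.63, 9.05 and 9.54 (1.74 ± 0.21, adjusted p = 8.44e-05), and RRAGA, a Rag GTPase that recruits mTORC1 to the lysosome, from 11.91, 11.68 and 11.96 to 12.94, 12.92 and 13.27 (1.20 ± 0.21, adjusted p = 0.00247). The groups did not overlap in these genes. RRAGD also rose, from a low level, by 0.95 ± 0.18, whereas the genes of the transcription factors TFEB (-0.04), TFE3 (0.35) and MITF (-0.21) did not pass. Of 15 subunits of the proton pump that acidifies lysosomes 4 rose (7 without replicate 1, and 1 or 2 without control 2, control 3 or palbociclib 3), led by ATP6V1C1 at 1.08 ± 0.22. Of 27 lysosomal genes 5 rose and 2 fell, with and without replicate 1: the channel MCOLN1 rose by 0.79 ± 0.16 and the galactosidase GLA fell by 0.99 ± 0.17. Leaving out any 1 of the RT112 arrays other than replicate 1 turned the 5 into 1 or 2, and leaving out control 2, control 3 or palbociclib 3 turned the 2 into 1.

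FNIP1 is shown for the E-box CACGTG, a core of the element bound by TFEB and related factors, in the 250 bases before its start at chr5:131797018-131797267 (minus strand) (RefSeq, GRCh38.p14), with the letters in capitals.
FNIP1: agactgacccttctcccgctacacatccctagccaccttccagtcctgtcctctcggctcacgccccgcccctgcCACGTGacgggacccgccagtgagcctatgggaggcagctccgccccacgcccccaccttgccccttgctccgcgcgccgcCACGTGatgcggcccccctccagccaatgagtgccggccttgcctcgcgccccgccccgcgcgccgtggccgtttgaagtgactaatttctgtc
The word begins at -175 and -94. It was found in 16 of 62 promoters of the lysosome, proton pump and autophagy lists (25.8%), in 9.41% of all measured promoters and in 10.1% of those of genes called higher. The 62 include members that did not change.

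Genes of stress and oxygen response rose in part. Of 28 genes of the integrated stress response and one-carbon metabolism 5 rose (9 without replicate 1, and 3 without control 1, control 2, palbociclib 2 or palbociclib 3). DDIT4, an inhibitor of mTORC1, went from 7.58, 7.41 and 7.63 to 9.14, 9.44 and 9.72 (1.89 ± 0.15, adjusted p = 1.73e-06), and the transcription factor ATF4 from 8.91, 8.72 and 8.98 to 9.68, 10.32 and 10.27 (1.22 ± 0.21, adjusted p = 0.00167). The groups did not overlap in either gene. Among genes of hypoxia and glycolysis, 28 in number, 10 were higher (13 without replicate 1) and none lower. NDRG1 (1.72), the angiogenic factor VEGFA (1.68), the mitophagy receptors BNIP3 (1.27) and BNIP3L (0.95) and the aldolase ALDOC (1.09) led, while LDHA (0.03), GAPDH (-0.02) and ENO1 (-0.04) did not pass. Of 14 genes of arrestins and glucose handling 3 rose (5 without replicate 1). TXNIP, an arrestin-like protein that limits glucose uptake, read 6.56, 6.46 and 6.58 in the controls and 8.11, 9.17 and 9.61 under palbociclib (2.43 ± 0.29, adjusted p = 9.14e-05). Its relative ARRDC4 rose by 2.16 ± 0.18. Replicate 1 was the lowest treated array in both, and without it the differences were 2.86 and 2.34.

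In a list of the aryl hydrocarbon receptor, a ligand-activated transcription factor, and its targets 6 of 10 genes rose. The 6 became 5 without replicate 1, and 3 without control 2, control 3, palbociclib 2 or palbociclib 3. The gene of the receptor, AHR, was among the 6 (0.64 ± 0.18), and its call was lost without replicate 1. CYP1A1, the best known target of the receptor, read 4.57, 4.45 and 4.41 in the controls, below the array medians, and 6.44, 6.87 and 6.74 under palbociclib (2.21 ± 0.13, adjusted p = 1.37e-07). CYP1B1 (0.75 ± 0.13) and TIPARP (0.70 ± 0.13) also rose, and NQO1 stood at -0.00 ± 0.20. Of 23 NRF2 targets 5 rose and 1 fell, and the 5 became 8 without replicate 1 and 1 or 2 without any other RT112 array. Of 19 citric acid cycle genes 2 rose (5 without replicate 1), ACO1 (1.22 ± 0.25) and IDH1 (1.19 ± 0.24). Among 13 genes of polyamine metabolism 3 rose with and without replicate 1, of which SAT2 went from 6.22, 6.19 and 5.83 to 7.34, 7.46 and 7.67 (1.41 ± 0.16) and the acetyltransferase SAT1 rose by 1.68 ± 0.37, a call lost without control 1 (1.53), palbociclib 2 (1.54) and palbociclib 3 (1.48).

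Growth signalling genes moved in both directions. Of 23 genes of PI3K, FOXO and growth control 7 rose with and without replicate 1 and none fell. YPEL5 went from 6.53, 6.40 and 6.76 to 7.51, 8.15 and 8.37 (1.45 ± 0.19, adjusted p = 2.33e-04), TSC1, a brake on mTORC1, from 7.57, 7.73 and 7.58 to 8.40, 8.88 and 8.86 (1.09 ± 0.16, adjusted p = 4.92e-04), and the ubiquitin ligase FBXO32 rose by 1.08 ± 0.15. Each treated array was above each control in these genes. Of 27 receptor tyrosine kinases and ligands 3 rose and 3 fell (5 and 4 without replicate 1). EGFR rose from 10.17, 10.30 and 10.28 to 10.88, 11.60 and 11.60 (1.11 ± 0.22, adjusted p = 0.00653), whereas the kinase AXL fell from 8.57, 8.72 and 8.65 to 7.06, 7.54 and 7.29 (-1.35 ± 0.18, adjusted p = 2.70e-04) and the KIT ligand KITLG by 0.54 ± 0.11. FGFR3, which RT112 is known to carry as a fusion with TACC3, stood at 0.04 ± 0.12 (adjusted p = 0.972), and TACC3, also a spindle gene, fell by 0.74 ± 0.16. Of 36 feedback and immediate early genes of the MAPK pathway 7 rose and 1 fell (6 and 1 without replicate 1, and 4 rose without control 1, control 3 or palbociclib 3). KLF6 rose from 7.98, 8.11 and 8.29 to 9.57, 9.99 and 10.13 (1.77 ± 0.17, adjusted p = 1.11e-05), the phosphatase DUSP10 by 1.74 ± 0.15 and EGR1 by 1.01 ± 0.12, and ETV4 fell by 0.56 ± 0.10.

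Keratins and other lineage genes changed in part, where 4.95% of all genes were called higher and 3.53% lower (8.09% and 5.11% without replicate 1). Of 26 basal and squamous genes 9 rose and 1 fell (12 and 1 without replicate 1, and 5 rose without control 2 or palbociclib 3). The fall with all arrays, that of KRT4 (-0.77 ± 0.21), was lost without control 3 (-0.45), palbociclib 1 (-0.71), palbociclib 2 (-0.80) and palbociclib 3 (-0.81). The fall counted without replicate 1 was therefore that of another member. KRT13, a keratin of suprabasal urothelium, read 15.50, 15.52 and 15.51 in the controls and 16.39, 17.14 and 17.14 under palbociclib (1.38 ± 0.20, adjusted p = 5.11e-04). SFN, the epithelial 14-3-3 sigma protein, went from 15.95, 15.93 and 15.39 to 16.80, 16.84 and 16.92 (1.10 ± 0.19, adjusted p = 0.00236). The groups did not overlap in these 2 bright genes. KRT5 rose by 1.20 ± 0.27, a call lost without palbociclib 2 (0.99) and palbociclib 3 (1.07), and its difference was 1.55 without replicate 1. KRT14 stood at -0.75 ± 0.29 (adjusted p = 0.15). Of 27 luminal and urothelial genes 2 rose and 2 fell (3 and 2 without replicate 1, and 1 rose without control 2): KRT19 rose from 11.71, 11.36 and 12.19 to 12.44, 14.01 and 13.99 (1.72 ± 0.34, adjusted p = 0.00566), KRT18 fell from 12.49, 12.74 and 12.37 to 11.42, 11.03 and 11.39 (-1.25 ± 0.23, adjusted p = 0.00297), and the uroplakin UPK1B fell by 1.27 ± 0.18. KRT8, the usual partner of KRT18, stood at -0.12 ± 0.18 (adjusted p = 0.898).

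Of 31 genes of the epithelial-mesenchymal state 4 fell and 1 rose (4 and 3 without replicate 1). The shares over all genes were 3.53% lower and 4.95% higher (5.11% and 8.09% without replicate 1). The rise, that of SNAI2 (0.83 ± 0.24), was lost without control 2 (0.89), control 3 (0.56), palbociclib 1 (0.78), palbociclib 2 (0.78) and palbociclib 3 (0.94). TGFB2, a TGF-beta ligand, fell from 7.21, 6.95 and 7.17 to 5.72, 5.58 and 5.75 (-1.43 ± 0.14, adjusted p = 1.31e-05), the matrix genes TGFBI by 1.30 ± 0.17 and FN1, encoding fibronectin, by 0.89 ± 0.18, and CDH1 did not pass (0.06 ± 0.18, adjusted p = 0.969). Of 28 genes of Notch, Wnt and hedgehog signalling 2 fell with and without replicate 1, and without it NOTCH2 (0.68) and NOTCH3 (0.57) were also called higher. Those that fell were the Wnt antagonist DKK1 (-0.94 ± 0.16) and the Notch feedback gene NRARP (-0.82 ± 0.15). Of 18 targets of YAP and TEAD 3 fell and 2 rose (2 and 4 without replicate 1). The 2 became 0 without any 1 of the other RT112 arrays, and the 3 became 1 without control 1 or control 3. Of 19 TGF-beta and BMP targets 2 rose and 1 fell (3 and 2 without replicate 1), and the 2 became 0 without any other RT112 array. Of 5 APOBEC3 deaminases 1 fell, with and without replicate 1: APOBEC3C fell by 0.66 ± 0.17, a call lost without control 1 (-0.60), control 2 (-0.61), palbociclib 2 (-0.54) and palbociclib 3 (-0.63).

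Inflammatory and death genes also differed by list, where 4.95% of all genes were called higher (8.09% without replicate 1). By limma none of 33 interferon-stimulated genes and none of 27 genes of antigen presentation and checkpoint ligands passed (1 each without replicate 1). In the latter list the call without replicate 1 was that of the checkpoint ligand CD276 (0.53). Of 18 apoptosis regulators limma called no member with all arrays against 2 without that array. At an unadjusted p under 0.05 the higher members with all arrays numbered 3, 2 and 3 in these lists, and none was lower. Of 33 senescence-associated secretory genes 6 rose and none fell (7 without replicate 1), with a median of 0.00. Among them CCL20, a chemokine, went from 6.54, 6.32 and 6.74 to 7.61, 8.67 and 8.33 (1.68 ± 0.22, adjusted p = 1.67e-04), IL1A from 7.94, 8.03 and 7.90 to 8.75, 8.96 and 9.17 (1.00 ± 0.14, adjusted p = 4.77e-04), and CXCL8 rose by 0.79 ± 0.16. The groups of CCL20 and IL1A did not overlap. Of 17 NF-kB genes 3 rose (4 without replicate 1, and 1 without control 2, control 3, palbociclib 2 or palbociclib 3), led by the feedback inhibitor TNFAIP3 (1.44 ± 0.27). Of 20 p53 targets 4 rose and none fell, with and without replicate 1: TP53INP1 (0.63 ± 0.11), GADD45A (1.21), MDM2 (0.62) and CCNG1 (0.60). The calls of GADD45A were lost without control 2 (0.88), control 3 (1.34), palbociclib 2 (1.09) and palbociclib 3 (1.09), those of MDM2 without control 1 (0.58), control 2 (0.66), control 3 (0.62), palbociclib 2 (0.63) and palbociclib 3 (0.50) and those of CCNG1 without control 1 (0.58), control 2 (0.65), control 3 (0.58), palbociclib 2 (0.58) and palbociclib 3 (0.55). The drug efflux pump ABCG2 fell by 0.86 ± 0.15, 1 of 10 drug transporters of which 2 fell and 1 rose (3 and 2 without replicate 1, and 0 rose without any other RT112 array).

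Some calls turned on palbociclib replicate 1. Of genes called with all arrays, 5 moved most when it was left out. ID1, a BMP target, read 8.03, 7.62 and 8.45 in the controls and 8.19, 10.28 and 10.27 under palbociclib, where replicate 1 lay at the level of the controls, and its difference went from 1.54 ± 0.43 (adjusted p = 0.0393) to 2.24 (adjusted p = 1.15e-04). That call was also lost without control 1 (1.54), control 2 (1.33), control 3 (1.75), palbociclib 2 (1.19) and palbociclib 3 (1.20). KRT19 moved from 1.72 to 2.24, FAM223B from 1.61 to 2.18, CAPNS2 from 1.59 to 2.15 and H4C3 from -4.14 to -4.66, each away from 0. Of genes called without the array, MTRNR2L2 went from -0.33 (adjusted p = 0.924) to -1.32 (adjusted p = 0.00376) and the respiratory chain gene COX7B from -0.52 (adjusted p = 0.682) to -1.14 (adjusted p = 0.0385). COX7B read 11.57, 11.74 and 10.65 in the controls and 12.03, 10.17 and 10.19 under palbociclib, so that replicate 1 alone lay above them. Over the 1053 genes called higher in both fits, replicate 1 stood 0.51 above the control mean (median), against 0.82 and 0.86 in its partners, and over the 710 called lower in both it stood at -1.12, against -1.05 and -0.99.

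The same genes were compared with J82, which shared the spread of the fit and no control array. The difference of the 2 responses passed for 1027 genes (4.57%), of which 412 were more positive in RT112 (1.83%) and 615 more negative (2.74%), and for 1517 genes without palbociclib replicate 1. Licensing genes were more negative in RT112 in 20 of 23 cases, with a J82 median of 0.13, as were 21 of 26 polymerase and clamp genes, 13 of 20 histones and 21 of 26 genes of homologous recombination. DTL, which fell in RT112, stood at 0.87 ± 0.15 in J82, and the difference was -6.42 ± 0.22 (adjusted p = 2.07e-09). Mitotic genes were lower in part in J82 too: 15 of 29 spindle, cytokinesis and condensin genes fell there, with a median of -0.70 against -2.33, and 20 were more negative in RT112. Cholesterol synthesis was more positive in RT112 in 14 of 19 genes, and 3 fell in J82, where HMGCS1 stood at -1.83 ± 0.30. CDK4 differed as well, at 0.93 in J82 (-2.34 ± 0.32, adjusted p = 6.29e-04). The autophagy list had 1 member more positive and 1 more negative in RT112, with 11 called higher in RT112 and 16 in J82. Among the 15 proton pump subunits 1 differed. A gene that did not pass this test is not shown to respond alike. With the dose in each line not given, differences of line and of dose cannot be told apart.

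**Figure D5:**
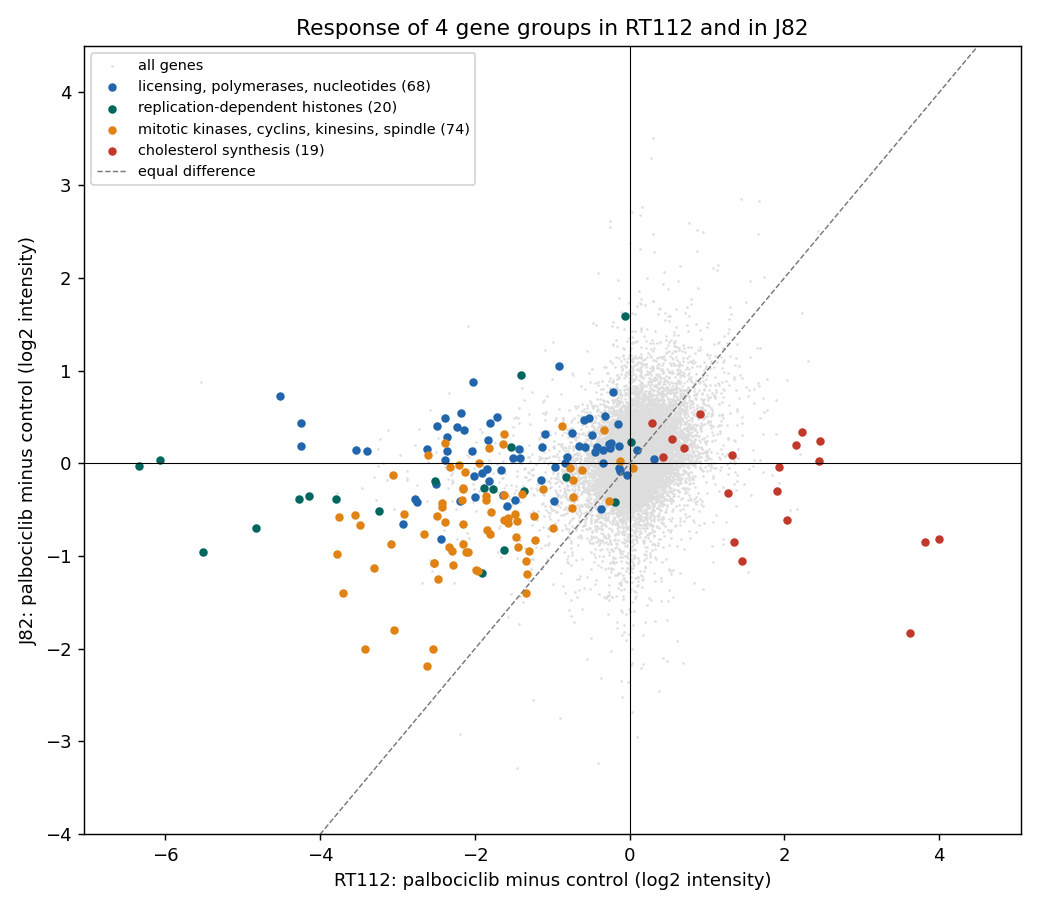
Palbociclib minus control in RT112 (x axis) and in J82 (y axis), both in log2 intensity, with 1 point per gene. Grey points are all genes, coloured points the members of 4 groups of lists, and the dashed line marks equal differences. Replication genes (blue) and histones (green) lie far left near the J82 zero line, mitotic genes (orange) lie left and mostly below it, and cholesterol genes (red) lie right, with HMGCS1 lowest in J82.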

How the data were processed

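The arrays are Affymetrix whole-transcript arrays, 1 per dish, grouped by the labels. The deposited values are log2 intensities that the authors made with RMA in Affymetrix Expression Console, per the submitters' processing notes, and no source used here names a genome build. Of 70523 rows, 67528 are transcript clusters, of which 23781 have 1 gene symbol in GEO's platform annotation, 1543 several and 42204 none. The brightest cluster per gene was kept, which gave 22465 genes, 479 of them with several clusters. The 6 arrays of the third line were not analysed here.

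A model over the 12 arrays of RT112 and J82 was fitted (limma 3.58.1, R 4.3.3, eBayes with an intensity trend), with 8 residual degrees of freedom and Benjamini-Hochberg adjustment over all genes, and tested on simulated data. The number of arrays, 3 per group, limits the precision, and no detection values were used. The members and the 56 gene lists (1331 entries, 1198 measured) were chosen with earlier results of these data known, and lists are described by counts and medians. Genes named are the 15 highest and 15 lowest differences that held without palbociclib replicate 1 and whose groups did not overlap. To these were added all of the CDK4/6-RB list and up to 5 called members of each other list. Genes moved most by palbociclib replicate 1 and genes with the largest differences from J82 complete the set. Of these 256 genes some are left out for length, and other list members are named as examples. Alternatives changed the scaling, filter, prior, weights, block, probe sets and arrays. Promoter words were counted per gene, over all its windows, by exact match in RefSeq sequences.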

Additional observations from a re-analysis of the deposited data

Results flagged for a closer look

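For 10 genes the difference between the responses of RT112 and J82 was among the largest that passed limma's test of the difference itself. They are listed because palbociclib minus control differed between the lines, whose doses are not given. Among the genes that rose in RT112, HMGCS1 stood at 3.62 ± 0.30 there and -1.83 ± 0.30 in J82, a difference of 5.45 ± 0.42 (adjusted p = 5.83e-06). MSMO1 stood at 4.0 ± 0.36 and -0.82 ± 0.36 (difference 4.81 ± 0.51, adjusted p = 6.23e-05), and SQLE at 3.82 ± 0.33 and -0.85 ± 0.33 (difference 4.67 ± 0.46, adjusted p = 3.58e-05). These are the sterol enzymes that led the rises.

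Among the genes that fell in RT112, DTL differed by -6.42 ± 0.22. H2BC3 stood at -6.35 ± 0.27 against -0.03 ± 0.27 in J82 (difference -6.32 ± 0.38, adjusted p = 9.13e-07) and H2BC14 at -6.07 ± 0.23 against 0.03 ± 0.23 (difference -6.10 ± 0.32, adjusted p = 3.99e-07). TYMS, for thymidylate synthesis, differed by -5.25 ± 0.32 (adjusted p = 1.06e-06) and PRIM1, the primase, by -4.68 ± 0.34 (adjusted p = 3.35e-06), and their J82 values were 0.73 and 0.43.

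A pair of genes was not called in RT112 and took its difference from a fall in J82. MGARP stood at 0.09 ± 0.18 in RT112 and -2.95 ± 0.18 in J82 (difference 3.04 ± 0.25, adjusted p = 7.70e-06), and the pseudogene RPL36AP33 at 0.69 ± 0.29 and -2.16 ± 0.29 (difference 2.85 ± 0.42, adjusted p = 0.00102). With 3 arrays in a group no test for a single outlying array was made.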

How the results depend on the processing

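The 1112 higher, 793 lower and 1027 differing genes kept within 1.5 times these counts under the other alternatives tried, except as follows. Shifting the arrays to 1 median gave 632 higher, a second quantile normalization 1625 differing, array weights (0.113 for palbociclib replicate 1) 3236 higher, 2544 lower and 2384 differing, and a required difference of 1, stricter by construction, 221 higher and 374 lower. Leaving out each array in turn gave from 544 to 1818 higher, from 576 to 1147 lower and from 688 to 1517 differing genes, each highest without palbociclib replicate 1. The replicate numbers were not taken as pairs. Same-numbered RT112 arrays deviated with r of 0.086, -0.193 and 0.173, and not every RT112 array correlated best with its own number. In J82 every array did, with r of 0.172, 0.188 and 0.075. The fit with the replicate number as a block gave 1082, 785 and 1095. The median of all genes ran from -0.055 without palbociclib replicate 1 to 0.082 without palbociclib replicate 3. It was 0.035 in the main fit, -0.001 after the shift to 1 median and 0.006 after the second quantile normalization. Of 222 named genes called with all arrays, 161 stayed called without each RT112 array in turn, and 169 under every alternative other than leaving out an array or requiring a difference of 1. ENO1-IT1, not called at -0.10, was higher at 0.48 with array weights, and ran from -0.42 to 0.52 as each array was left out, the latter, a call, without palbociclib replicate 1. The cause of these moves was not tested. With no detection values, falls of genes that ended near the background cannot be sized.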

Other observations

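Among genes outside the lists, chosen after their values were seen, several rose or fell by more than 1. ERRFI1, a feedback inhibitor of EGFR, read 9.34, 9.32 and 9.43 in the RT112 controls and 10.29, 11.49 and 11.82 under palbociclib (1.84 ± 0.28, adjusted p = 7.69e-04). The clock factor BMAL1 went from 6.65, 6.79 and 6.60 to 7.84, 8.48 and 8.77 (1.68 ± 0.19), and PTGS2, which encodes the cyclooxygenase COX-2, from 5.16, 5.37 and 5.32 to 6.15, 7.19 and 7.09 (1.52 ± 0.21). In all of these the treated arrays lay above the controls, as the choice of genes required, and replicate 1 was the lowest treated array. The cold-inducible RNA binding gene CIRBP (1.37), the lipid kinase PIK3C3 (1.45), the autophagy receptor OPTN (1.38) and the sodium channel subunit SCNN1A (1.36) rose too. Among the falls, WDR76 went from 9.10, 9.35 and 8.72 to 5.97, 5.50 and 5.33 (-3.45 ± 0.24, adjusted p = 4.34e-07), the kinetochore gene KNTC1 stood at -2.88 ± 0.20, STIL, needed to copy centrioles, at -2.58 ± 0.16, the PCNA partner PCLAF at -2.38 ± 0.20 and the kallikrein KLK6 at -1.96 ± 0.19.

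Gene families, grouped by symbol after the values were seen, gave further counts. Of 5 measured subunits of augmin, which seeds microtubules in the spindle, 4 fell and none rose, with and without palbociclib replicate 1, with HAUS8 at -1.76 ± 0.15 and HAUS1 at -1.61 ± 0.22. Of 22 histone genes outside the replication-dependent list 7 fell (8 without that array), led by H2AX (-3.09 ± 0.34). Of 21 symbols beginning with KDM, mostly lysine demethylases, 7 rose and none fell (11 without palbociclib replicate 1), with KDM5B going from 8.12, 8.13 and 8.14 to 9.31, 9.87 and 10.02 (1.60 ± 0.17). Of 37 VPS sorting genes 7 rose and 1 fell (14 and 1 without that array), with VPS39 at 1.36 ± 0.20, and of 30 coat and tether genes of the COG, COP and TRAPP complexes 7 rose (10 without it). Of 533 ZNF genes 40 rose and 6 fell (63 and 12 without it). Among all genes 4.95% were called higher and 3.53% lower with all arrays, and 8.09% and 5.11% without palbociclib replicate 1.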
